A study of Mus musculus with 12 samples.

Results

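The transcripts described here are 10 genes of the Notch pathway, out of 47729 genes counted by RNA-seq in cell lines from mouse liver tumours. They were chosen by symbol, with earlier results of these data known. They are the receptors Notch1, Notch2 and Notch3, the ligands Jag1 and Jag2, and the target or feedback genes Hes1, Hey1, Heyl, Nrarp and Dtx4. The study asked how the BRAF inhibitor PLX4720 changes transcription in 6 lines, 3 from primary liver tumours (T1, T2 and T3) and 3 from lymph node metastases (M1, M2 and M3). Each line gave 1 library after 48 h in 2 µM PLX4720 and 1 after the same time in DMSO, the solvent control. All 6 lines, controls included, carry the genotype label BRAFV600E; p53 KO, so no group is labelled as wild type for Braf or p53. The study's design text describes mice that expressed BRAFV600E in hepatocytes and lost Trp53 or Cdkn2a. The driver of the Cre or transgene and the number of clones per line are not given in the sources used here, nor is it stated whether any lines came from the same mouse. T3, M2 and M3 carry the same number in the names of the deposited files, and whether they are independent lines is unknown.

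Notch receptors are single-pass membrane proteins that are cut when a Jagged or Delta ligand on a neighbouring cell pulls on them. The last cut, by gamma-secretase, frees the intracellular domain, which enters the nucleus and joins the DNA-binding protein RBPJ and a Mastermind coactivator to switch on genes such as Hes1, Hey1, Heyl and Nrarp. In the liver the pathway is best known for bile duct formation, where JAG1 and NOTCH2 are the ligand and receptor mutated in Alagille syndrome. HES and HEY proteins are transcriptional repressors, NRARP destabilises the nuclear Notch complex and so acts as negative feedback, and DTX4 is an E3 ubiquitin ligase of the Deltex family, which acts on the receptor.

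Under PLX4720 Jag2 and Nrarp had the widest fitted gaps between the sites of the tested members (under DMSO Jag1 came between them), so the 250 bases before their RefSeq start sites (RefSeq, build GRCm38.p6) are shown. Capitals mark CACGTG, the E box preferred by HEY proteins, and CACNAG, the N box of HES proteins, on either strand. A motif on the minus strand appears as its reverse complement. These 2 motifs were chosen after the sequences had been seen.
Nrarp, chr2:25180508-25180757, plus strand: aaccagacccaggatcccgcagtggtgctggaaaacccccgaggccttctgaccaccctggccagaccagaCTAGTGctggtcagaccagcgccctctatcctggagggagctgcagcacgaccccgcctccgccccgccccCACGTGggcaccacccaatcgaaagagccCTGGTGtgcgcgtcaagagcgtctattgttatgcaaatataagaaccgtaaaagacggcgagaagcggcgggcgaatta
Jag2, chr12:112929496-112929745, minus strand: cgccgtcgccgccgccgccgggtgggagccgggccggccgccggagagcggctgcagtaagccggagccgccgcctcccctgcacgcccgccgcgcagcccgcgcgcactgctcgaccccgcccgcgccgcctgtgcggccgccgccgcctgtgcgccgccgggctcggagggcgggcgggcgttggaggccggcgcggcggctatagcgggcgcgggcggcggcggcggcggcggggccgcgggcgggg
The Nrarp window held 1 CACGTG at -108 to -103 from the start site and 2 CACNAG on the minus strand, at -179 to -174 and at -79 to -74. The Jag2 window, of 87.2% GC against 61.2% for Nrarp, held neither. Of 32851 RefSeq promoter windows of the same length, 6.02% held CACGTG and 36.7% held CACNAG. The core of the RBPJ site, TGGGAA, was in none of the 6 members' windows that RefSeq's table holds (Notch1, Notch2, Notch3, Jag1, Jag2 and Nrarp), and 21.6% of all windows held it on either strand. The longer forms CGTGGGAA and TGTGGGAA, which contain TGGGAA, were in 0.636% and 1.46% of all windows. An absent match says only that these letters are not in this window.

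Each library held 31992512 to 39288748 fragments assigned to genes. Levels are given as CPM (counts scaled to library size) after TMM scaling, which sets the libraries on 1 scale, and as FPKM (CPM per kilobase of exon) where genes are compared with each other. Differences are fitted log2 values with their SE from edgeR's quasi-likelihood test, with p-values adjusted by Benjamini-Hochberg over all genes tested, and a difference was called at an adjusted p under 0.05. The replicates are the 3 lines of a site. Trp53 was counted at 2.79 to 8.55 CPM in the 12 libraries, and since the deleted exons are not given, a count over the whole gene does not check the label. The hepatocyte marker list summed to 807 to 1898 CPM in the primary libraries and to 0.655 to 6.31 CPM in the metastasis libraries, where 9 to 13 of its 17 genes were at 0. In primary libraries 2 to 6 of the 17 were at 0, and most of the sum was Apob (627 to 1560 CPM). Apoc3, Cps1, Cyp3a11, Cyp2e1, Ahsg, Hpd and Tat were at most at 0.267 CPM in any library of either site. The hepatocyte factor Hnf4a was at 121 to 266 CPM in primary lines and at most 0.203 CPM in metastasis lines, and Alb was at 0 in all 6 metastasis libraries and at most 15.8 CPM in the primary ones. The metastasis lines' libraries therefore lack the defining markers of the hepatocyte label, while 14 fibroblast, stellate and mural markers summed to 2372 to 15575 CPM in them and to at most 79.4 CPM in primary lines. Col3a1 or Col1a2 was the highest of the 14 in each metastasis library. Not all 14 were high there: 2 to 3 were at 0, Des and Lrat in all 6 libraries. Rgs5 was at most 1.37 CPM and Reln at most 0.119 CPM, against 14.3 and 4.37 CPM in T1 under DMSO. The 12 leukocyte markers summed to 2.64 to 11.7 CPM in primary libraries, 9.49 to 34.6 CPM in metastasis DMSO libraries and 3.78 to 11.6 CPM in metastasis PLX4720 libraries, with Ptprc at most at 0.641 CPM. Cd53 was the top leukocyte marker in T1, M1, M2 and M3 under DMSO (5.54, 31.4, 6.25 and 13.0 CPM). Named after its values were seen, Cd53 fell with PLX4720 over all 6 lines (-3.93 ± 0.49, adjusted p = 0.000947), and its part in the members' changes was not tested. T1 stood apart in its endothelial markers, which summed to 156 CPM under DMSO and 128 CPM under PLX4720 against at most 10.0 CPM in the other lines. In T1 this came mostly from Sox17 (72.4 and 83.9 CPM under DMSO and PLX4720) and Tek (69.6 and 35.1 CPM). The T3 PLX4720 library had 3.67% of its fragments on mitochondrial genes against 0.189% to 0.712% in the others.

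Of the 10 members, 8 passed the filter on low counts and were tested in every comparison. Notch3 and Heyl did not pass. Hey1, Nrarp and Jag2 had few fragments in metastasis libraries and passed through the primary ones, so for them a site difference was in part fixed by the filter. With PLX4720 over all 6 lines, Hey1, Dtx4, Hes1 and Notch2 rose and Nrarp fell. Under DMSO, Jag1, Jag2, Hes1, Hey1 and Nrarp were lower in metastasis lines than in primary lines, and Notch1 was higher.

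**Figure D1:**
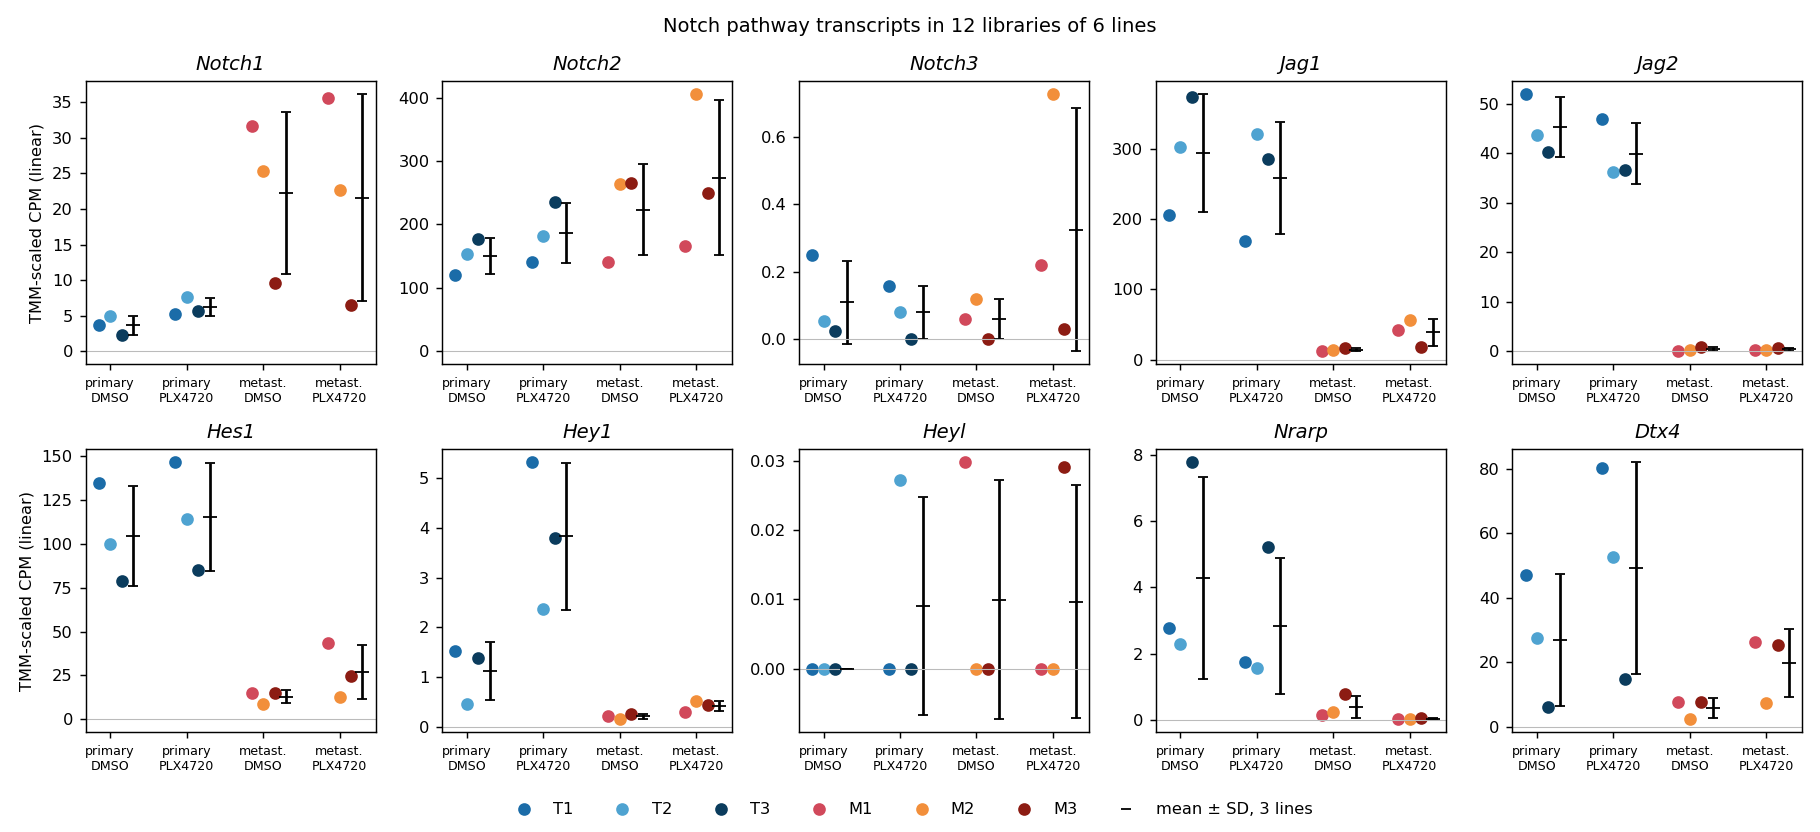
TMM-scaled CPM (y axis, linear, own scale per gene) of the 10 genes in the 4 groups of site and treatment on the x axis. Points are single libraries coloured by line, and bars are the mean ± SD of 3 lines. Jag2 lies between 36.3 and 52.0 CPM in primary lines and at or below 0.842 CPM in metastasis lines.

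Notch2 was the main receptor transcript in every library. Notch2 lies at chr3:98013527-98150361 on the plus strand (ENSMUSG00000027878; build GRCm38, as for all gene positions here). Under DMSO it was counted at 120.3, 153 and 177 CPM in T1, T2 and T3, and at 140.5, 264 and 265 CPM in M1, M2 and M3. With PLX4720 it stood at 141, 182 and 236 CPM in T1, T2 and T3, and at 166, 406 and 249 CPM in M1, M2 and M3. Its groups overlapped between sites under both treatments, and 5 of 6 lines were higher with PLX4720, M3 being the exception. Per length, Notch2 made up 85.4% to 99.0% of the summed FPKM of the 3 receptors in all 12 libraries. Over all 6 lines Notch2 rose by 0.28 ± 0.09 (SE) on the log2 scale with PLX4720 (edgeR adjusted p = 0.0466). That call was lost when T1, T2, T3, M1 or M2 was left out (adjusted p = 0.106, 0.0991, 0.127, 0.068 and 0.109). Within the sites the values were 0.30 ± 0.12 in primary lines and 0.26 ± 0.13 in metastasis lines (adjusted p = 0.173 and 0.186). The site difference of Notch2 did not pass under DMSO (0.58 ± 0.29, adjusted p = 0.274) or PLX4720 (0.59 ± 0.38, adjusted p = 0.375).

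Notch1 was a minor receptor transcript that stood higher in the metastasis lines. Notch1 lies at chr2:26457903-26516663 on the minus strand (ENSMUSG00000026923). Under DMSO it was counted at 3.70, 4.92 and 2.32 CPM in T1, T2 and T3 and at 31.7, 25.4 and 9.64 CPM in M1, M2 and M3. The sites did not overlap, M3 being the lowest of the metastasis lines, and the fitted difference was 2.63 ± 0.55 (adjusted p = 0.0272), a 6.18-fold higher level. The call was lost when T1, T2, T3, M1 or M2 was left out (adjusted p = 0.0803, 0.0582, 0.0706, 0.0699 and 0.0906). Its share of the receptors' FPKM under DMSO was 0.981% to 2.37% in primary lines and 2.68% to 14.6% in metastasis lines. With PLX4720 Notch1 stood at 5.28, 7.68 and 5.72 CPM in T1, T2 and T3, above the DMSO library of the same line each time. It stood at 35.7, 22.6 and 6.57 CPM in M1, M2 and M3, so only M1 was above its DMSO library. In primary lines Notch1 rose by 0.81 ± 0.20 with PLX4720 (adjusted p = 0.041), a call lost without T1, T2, T3 or M2 (adjusted p = 0.128, 0.114, 0.146 and 0.0539). In metastasis lines its change was -0.17 ± 0.18 (adjusted p = 0.558), and the difference between the sites' changes, -0.98 ± 0.27, did not pass in edgeR (adjusted p = 0.104), while DESeq2 called it (adjusted p = 0.0221), as did edgeR with all genes of any count (adjusted p = 0.0206) or without M1 (adjusted p = 0.0452). Under PLX4720 the site difference was 1.81 ± 0.60 (adjusted p = 0.104), and the groups overlapped because M3 was within the primary range. Exon bases shared with other genes made up 10.4% of Notch1, 5.02% of Notch2 and 6.07% of Notch3, and the recorded counting command set no strand.

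Notch3, the receptor best known from vascular mural cells, was near the limit of detection. Notch3 lies at chr17:32120820-32166880 on the minus strand (ENSMUSG00000038146), and its 12 libraries held 60 fragments in all. M2 under PLX4720 held 24 of them (0.728 CPM), no other library held more than 9, and T3 under PLX4720 and M3 under DMSO held 0. The groups overlapped in every comparison, and no fold or test is given.

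**Figure D2:**
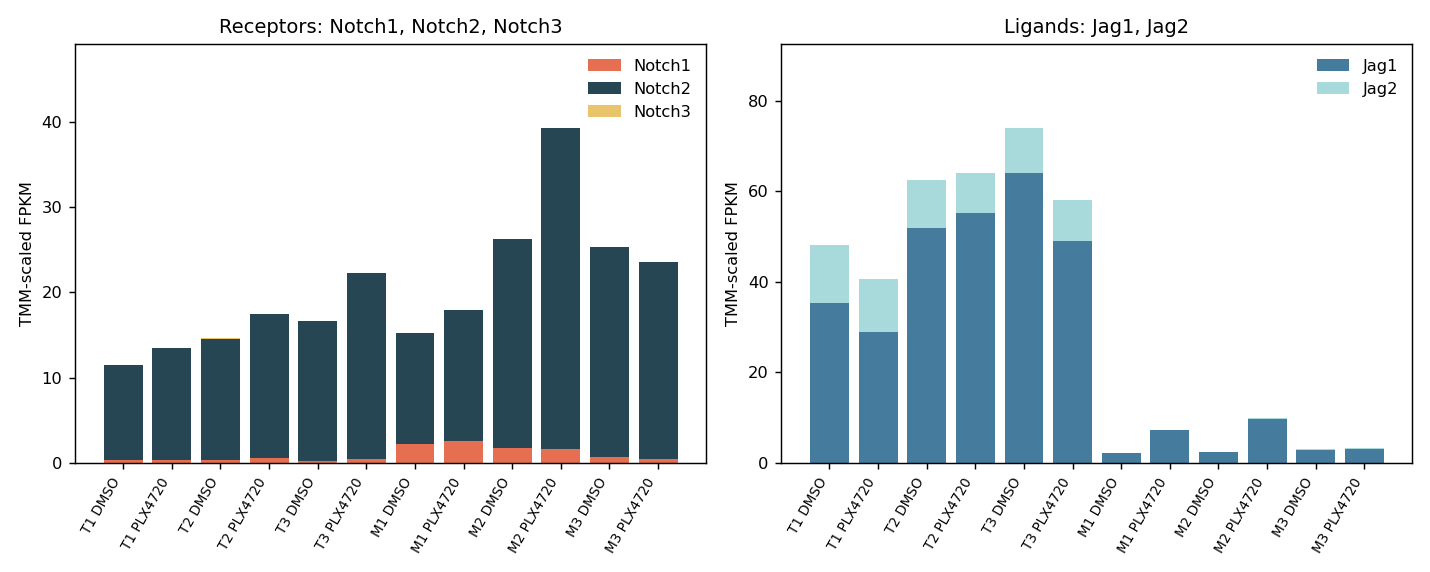
Stacked bars of TMM-scaled FPKM (y axis, linear) per library for the 3 receptors (left) and the 2 Jagged ligands (right), with lines and treatments on the x axis. Notch2 fills most of every receptor bar, and the ligand bars reach 40.6 to 74.1 FPKM in primary lines and 2.11 to 9.79 FPKM in metastasis lines.

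Both Jagged ligands were far lower in the metastasis lines. Jag1 lies at chr2:137081456-137116644 on the minus strand (ENSMUSG00000027276). Under DMSO it was counted at 206, 302 and 374 CPM in T1, T2 and T3 and at 12.2, 13.4 and 16.4 CPM in M1, M2 and M3. Every metastasis line was below every primary line, with a fitted difference of -4.38 ± 0.29 (20.8-fold lower, adjusted p = 0.000989). In bulk RNA, fewer cells of a type and less RNA per cell cannot be told apart. Under PLX4720 Jag1 stood at 169, 321 and 285 CPM in T1, T2 and T3 and at 41.9, 56.7 and 18.2 CPM in M1, M2 and M3. The sites still did not overlap, and the difference was -2.70 ± 0.47 (6.52-fold lower, adjusted p = 0.0145).

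With PLX4720, Jag1 rose in the metastasis lines. On the log2(CPM + 1) scale its change was 1.70 in M1, 2.01 in M2 and 0.14 in M3, against -0.29, 0.09 and -0.39 in T1, T2 and T3. In metastasis lines Jag1 rose by 1.35 ± 0.32 (2.56-fold, adjusted p = 0.017). The call was lost without M1 or M2 (adjusted p = 0.0633 and 0.107), and the fitted value without M3 was 1.90. In primary lines the change was -0.20 ± 0.29 (adjusted p = 0.717), and over all 6 lines 0.58 ± 0.21 (adjusted p = 0.0748, and 0.00108 without M3). The difference between the sites' changes was 1.55 ± 0.43 and did not pass in edgeR (adjusted p = 0.106), while DESeq2 called it (adjusted p = 0.0047), as did edgeR without M3 (adjusted p = 0.00623). Beside this rise, the summed fibroblast, stellate and mural markers went from 3843, 6154 and 2372 CPM under DMSO in M1, M2 and M3 to 9983, 15575 and 6589 CPM under PLX4720. The sum thus rose in M3 also, where Jag1 changed by 0.14. In metastasis lines 5 of 10 tested markers rose, where 12% of all genes tested rose. Not all moved together: Cspg4 was lower with PLX4720 in M1, M2 and M3, and Dcn and Pdgfra were lower in M3. The part of these markers in the Jag1 change was not tested.

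Jag2 had the widest site difference of the tested members. It lies at chr12:112908590-112929495 on the minus strand (ENSMUSG00000002799). Under DMSO it was at 52.0, 43.6 and 40.3 CPM in T1, T2 and T3 and at 0.0597, 0.208 and 0.842 CPM in M1, M2 and M3. The metastasis libraries rest on 2, 7 and 29 fragments, and none came near the primary range. Under PLX4720 it was at 46.9, 36.3 and 36.5 CPM in T1, T2 and T3 and at 0.137, 0.243 and 0.640 CPM in M1, M2 and M3, again without overlap. The 3 primary DMSO libraries held 5121 Jag2 fragments and the 3 metastasis ones 38, a ratio of 120 after scaling (95% interval 87.7 to 170, for counting error only). The fitted difference was -6.91 ± 0.91 under DMSO (adjusted p = 0.00658) and -6.83 ± 0.66 under PLX4720 (adjusted p = 0.00242). Jag2 made up 13.4% to 28.6% of the 2 ligands' FPKM in primary libraries and 0.468% to 6.87% in metastasis libraries. PLX4720 changed it by -0.18 ± 0.12 in primary lines and -0.06 ± 0.28 in metastasis lines, neither past the threshold (adjusted p = 0.369 and 0.916).

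**Figure D3:**
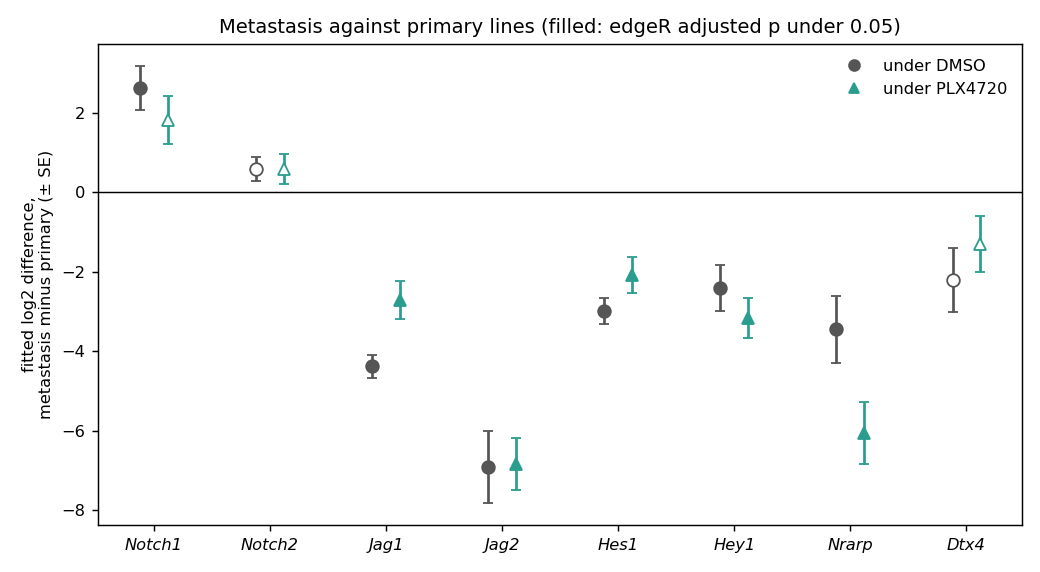
Fitted log2 difference ± SE of metastasis minus primary lines (y axis) for the 8 tested genes, with circles for DMSO and triangles for PLX4720 and filled symbols for an edgeR adjusted p under 0.05. Jag2 is lowest at -6.91 and -6.83, and Notch1 and Notch2 are the 2 genes above 0.

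Hes1, the best known Notch target in many tissues, was, like the ligands, lower in metastasis lines. It lies at chr16:30064384-30067796 on the plus strand (ENSMUSG00000022528). Under DMSO it was counted at 135, 99.9 and 78.6 CPM in T1, T2 and T3 and at 15.1, 8.84 and 14.9 CPM in M1, M2 and M3. No metastasis line reached a primary line, and the difference was -3.00 ± 0.32 (7.97-fold lower, adjusted p = 0.00345). Under PLX4720 Hes1 stood at 147, 114 and 85.0 CPM in T1, T2 and T3 and at 43.4, 12.6 and 24.7 CPM in M1, M2 and M3. The sites did not overlap there either, and the difference was -2.08 ± 0.46 (4.24-fold lower, adjusted p = 0.0313). That second call was lost without T1, T2, M2 or M3 (adjusted p = 0.0871, 0.081, 0.058 and 0.0999).

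All 6 lines had more Hes1 with PLX4720 than with DMSO, with changes on the log2(CPM + 1) scale of 0.12, 0.19 and 0.11 in T1, T2 and T3 and of 1.46, 0.47 and 0.69 in M1, M2 and M3. Over all lines it rose by 0.54 ± 0.12 (adjusted p = 0.01). In metastasis lines it rose by 0.94 ± 0.17 (1.91-fold, adjusted p = 0.00555), and in primary lines the change of 0.14 ± 0.16 did not pass (adjusted p = 0.611). The difference between those changes, 0.79 ± 0.23, did not pass in edgeR (adjusted p = 0.124), while DESeq2 gave an adjusted p of 0.0486.

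Hey1, which encodes a repressor of the HES and HEY family, rose with PLX4720 in the primary lines. It lies at chr3:8663359-8667256 on the minus strand (ENSMUSG00000040289). In T1, T2 and T3 it went from 1.53, 0.447 and 1.39 CPM under DMSO to 5.33, 2.37 and 3.80 CPM under PLX4720. In M1, M2 and M3 it went from 0.209, 0.149 and 0.261 CPM to 0.301, 0.516 and 0.436 CPM. All 6 lines were higher with PLX4720, the treatments did not overlap within either site, and every metastasis library was below every primary one of the same treatment. Over all 6 lines Hey1 rose by 1.41 ± 0.23 (adjusted p = 0.00335). In primary lines it rose by 1.83 ± 0.25 (3.55-fold, adjusted p = 0.00711, and 0.0692 without T1). In metastasis lines, on 21 fragments under DMSO and 43 under PLX4720, the change of 0.99 ± 0.39 did not pass (adjusted p = 0.108), and the sites' changes were not shown to differ (-0.84 ± 0.48, adjusted p = 0.505). Hey1 was lower in metastasis than in primary lines by a fitted -2.41 ± 0.58 under DMSO (adjusted p = 0.0426) and -3.16 ± 0.50 under PLX4720 (adjusted p = 0.011). The DMSO call was lost without T1, T3, M1, M2 or M3 (adjusted p = 0.12, 0.102, 0.112, 0.162 and 0.11).

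Heyl, another HEY family gene (chr4:123233556-123249875, plus strand, ENSMUSG00000032744), had 3 fragments in all 12 libraries, 1 each in T2 PLX4720, M1 DMSO and M3 PLX4720. The primary DMSO group held 0, which allows a level of up to 0.0264 CPM (3 counts over the group, for counting error only). The limit of the other groups was of the same size, so no difference in Heyl was detectable at this depth.

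Nrarp, a feedback inhibitor of the pathway, was the member that fell with PLX4720. It is a 1-exon gene at chr2:25180758-25183339 on the plus strand (ENSMUSG00000078202). In T1, T2 and T3 it went from 2.79, 2.29 and 7.79 CPM (100, 87 and 309 fragments) to 1.75, 1.58 and 5.21 CPM (67, 58 and 195 fragments). In M1, M2 and M3 it went from 0.149, 0.238 and 0.784 CPM (5, 8 and 27 fragments) to 0.0274, 0.0303 and 0.0582 CPM (1, 1 and 2 fragments). All 6 lines were lower with PLX4720, and the treatments overlapped in the primary lines only, where T3 stood above T1 and T2. Over all 6 lines Nrarp fell by 1.89 on the log2 scale (-1.89 ± 0.24, adjusted p = 0.000965). In metastasis lines the fitted change was -3.19 ± 0.44 (adjusted p = 0.00143), and 40 fragments against 4 gave a ratio of DMSO to PLX4720 of 10.2 (95% interval 3.70 to 39.4, for counting error only). In primary lines the change of -0.59 ± 0.18 did not pass (adjusted p = 0.0777).

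The fitted change of Nrarp differed between the sites by -2.59 ± 0.49 (adjusted p = 0.0278). That call was lost without T1, T2, T3, M2 or M3 (adjusted p = 0.0724, 0.0905, 0.0862, 0.0716 and 0.235). On the log2(CPM + 1) scale, which damps low levels, the changes were -0.46, -0.35 and -0.50 in T1, T2 and T3 and -0.16, -0.26 and -0.75 in M1, M2 and M3, and overlapped. Between sites, Nrarp was lower in metastasis lines by a fitted -3.44 ± 0.84 under DMSO (adjusted p = 0.0456) and -6.06 ± 0.78 under PLX4720 (adjusted p = 0.00619). The DMSO call was lost without T1, T2, T3, M1 or M2 (adjusted p = 0.0765, 0.071, 0.0966, 0.105 and 0.16). Under PLX4720, 320 fragments in primary against 4 in metastasis libraries gave a ratio of 74.0 (95% interval 28.6 to 273, for counting error only and not the spread between lines). Nrarp shares 79.4% of its exon bases with Gm38287 on the opposite strand, which was at 0 fragments in all 12 libraries. Whether fragments in the shared bases went uncounted was not tested, so the level of Nrarp is not set against other genes.

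Dtx4, the ubiquitin ligase, rose with PLX4720 at both sites. It lies at chr19:12466341-12501996 on the minus strand (ENSMUSG00000039982). In T1, T2 and T3 it went from 46.9, 27.6 and 6.17 CPM to 80.3, 52.5 and 14.8 CPM. In M1, M2 and M3 it went from 7.49, 2.26 and 7.49 CPM to 26.1, 7.40 and 25.2 CPM. All 6 lines were higher with PLX4720, although lines differed so much in level that the treatments overlapped in primary lines and the sites overlapped under both treatments. Over all lines Dtx4 rose by 1.37 ± 0.08 (adjusted p = 4.8e-05), and leaving out any 1 line gave 1.31 to 1.41. It rose by 0.98 ± 0.11 in primary lines (1.97-fold, adjusted p = 0.00427) and by 1.76 ± 0.12 in metastasis lines (3.38-fold, adjusted p = 6.5e-05). The rise was larger in metastasis lines by 0.78 ± 0.17 (adjusted p = 0.0459). That call was lost without T1, T2, M1, M2 or M3 (adjusted p = 0.25, 0.224, 0.063, 0.116 and 0.13) and with other size factors (adjusted p = 0.0503). The site difference itself did not pass under DMSO (-2.21 ± 0.80, adjusted p = 0.141) or PLX4720 (-1.31 ± 0.71, adjusted p = 0.292), while DESeq2 called the former (adjusted p = 0.0239).

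**Figure D4:**
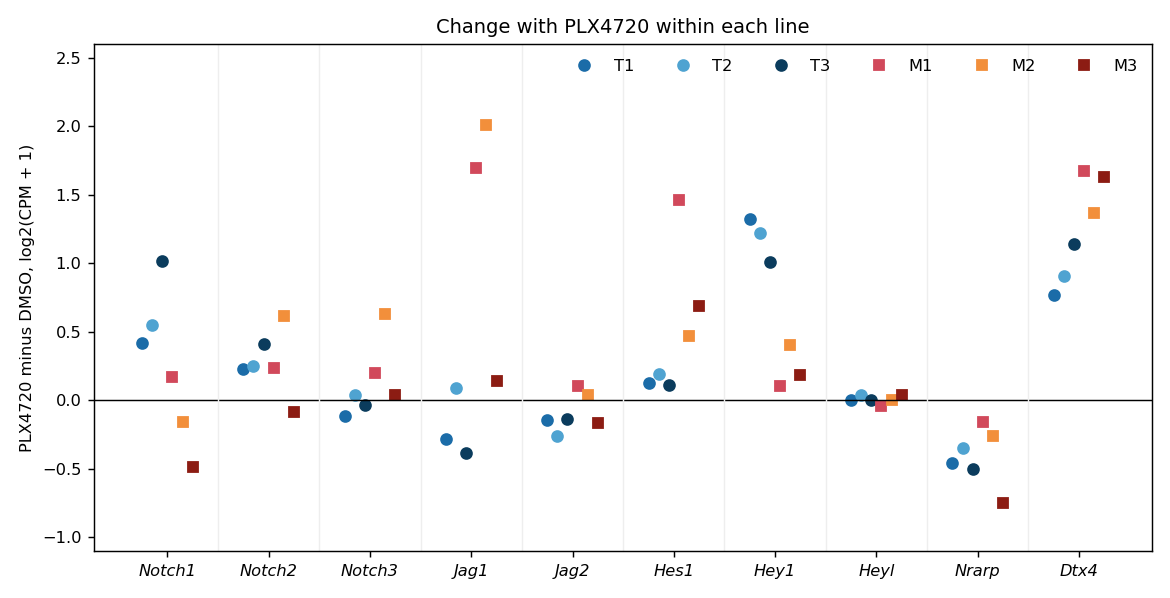
Change with PLX4720 within each line (PLX4720 minus DMSO, log2(CPM + 1), y axis) for the 10 genes on the x axis, with circles for primary and squares for metastasis lines. Dtx4, Hes1 and Hey1 lie above 0 in 6 of 6 lines and Nrarp below 0 in 6 of 6, and Jag1 is high in M1 (1.70) and M2 (2.01) only.

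Set against all genes, 4 of the 8 tested members rose and 1 fell with PLX4720 over all 6 lines, where 14.5% of 16555 genes rose and 12.7% fell. In primary lines 3 of 8 (Notch1, Hey1 and Dtx4) rose and 0 fell, against 4.46% and 3.77% of all genes. In metastasis lines 3 of 8 (Jag1, Hes1 and Dtx4) rose and 1 (Nrarp) fell, against 12% and 8.36%. The change differed between sites, upward in metastasis lines for Dtx4 and downward for Nrarp, among 1.85% and 1.09% of all genes called in those directions. Under DMSO 1 of 8 was higher and 5 of 8 lower in metastasis lines, where 4.64% and 7.49% of 14992 genes were called. Under PLX4720 0 of 8 were higher and 5 of 8 lower, where 5.62% and 7.88% of 15276 genes were called. Of the 5 lower members at each treatment, Jag2, Hey1 and Nrarp passed the filter through the primary lines, which in part fixed their direction, so these site counts are a description and are not read against the shares of all genes. For the count of 0 higher under PLX4720, 1 member (Notch1) had an unadjusted p under 0.05 in edgeR, and DESeq2 called it (adjusted p = 0.0214). For the 0 that fell in primary lines, 1 member (Nrarp) had an unadjusted p under 0.05 in edgeR, DESeq2 called 0, and an edgeR fit of the primary libraries alone called it (adjusted p = 0.0425). The members' median log2 change was 0.43 over all lines, 0.22 in primary and 0.60 in metastasis lines, against 0.03, 0.03 and 0.02 over all genes. Because the members were chosen with earlier results of these data known, the PLX4720 counts and medians are also a description. They are not a test of the members against all genes.

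Per length, the order of the members differed between the sites. In primary lines under DMSO, Hes1 (51.2 ± 13.9 FPKM, SD, n = 3) and Jag1 (50.4 ± 14.4 FPKM) came first and did not differ beyond their spread. Notch2 (13.9 ± 2.65 FPKM) and Jag2 (11.2 ± 1.49 FPKM) came next and overlapped, followed by Dtx4 (4.66 ± 3.53 FPKM). Hey1 (0.344 ± 0.180 FPKM) and Notch1 (0.256 ± 0.0915 FPKM) overlapped near the bottom, above Notch3 and Heyl. In metastasis lines under DMSO Notch2 came first (20.7 ± 6.65 FPKM), then Hes1 (6.36 ± 1.75 FPKM) and Jag1 (2.40 ± 0.371 FPKM). Notch1 (1.56 ± 0.797 FPKM) overlapped both Jag1 and Dtx4 (0.997 ± 0.524 FPKM). Jag2 (0.0913 ± 0.103 FPKM) and Hey1 (0.0632 ± 0.0173 FPKM) overlapped at the bottom of the tested genes.

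Of 61 other Notch pathway genes, 51 were tested. This list too was chosen with earlier results of these data known, so its counts and median are a description. Over all 6 lines 14 rose and 5 fell with PLX4720, where 14.5% of all genes tested rose and 12.7% fell, and their median change was 0.21 against 0.03 over all genes. Dtx3l, a Deltex-like ubiquitin ligase, rose by 1.01 ± 0.09 (adjusted p = 0.000242). Dlk2, a non-canonical ligand, rose by 1.46 ± 0.14 (adjusted p = 0.000348), and stood higher with PLX4720 in every line, for example at 10.4 against 2.73 CPM in T1 and 31.5 against 10.8 CPM in M3. Numbl, a relative of the Notch inhibitor Numb, rose by 0.67 ± 0.07 (adjusted p = 0.000564), and the corepressor gene Tle2 rose 2.83-fold (log2 SE 0.17, adjusted p = 0.000644). By role, those that rose were 2 of 3 tested ligands, 2 of 10 processing enzymes and secretase subunits, 1 of 4 glycosyltransferases, 5 of 13 trafficking and ubiquitin regulators and 4 of 17 nuclear cofactors. The 2 ligands were Dlk2 and Dlk1, and Dlk1 was at 0 in T2 and T3. Those that fell were 1 ligand, the Delta gene Dll1 (-1.50 ± 0.36, adjusted p = 0.016), and 4 nuclear cofactors. Dll1 was not lower with PLX4720 in T2 (0.184 to 0.191 CPM) or M3 (0.378 to 0.669 CPM), where it was near the floor. It did not pass in primary or metastasis lines alone (edgeR adjusted p = 0.105 and 0.068). The cofactors were Rbpj (-0.40 ± 0.08, adjusted p = 0.0079), Snw1, Ctbp2 and Tle1. Of the 3 other HES and HEY genes tested none passed in edgeR, although Bhlhe40 and Bhlhe41 had an unadjusted p of 0.0274 and 0.0217.

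In primary lines 4 of the 51 rose and 1 fell (Rbpj, -0.51 ± 0.11, adjusted p = 0.032), against 4.46% and 3.77% of all genes. In metastasis lines 8 rose and 1 fell (Tle1, -0.93 ± 0.16, adjusted p = 0.00481), against 12% and 8.36%. The counts that rose in metastasis lines are near that background. Dlk2 (2.83-fold, log2 SE 0.20, adjusted p = 0.00687), the ubiquitin ligase Neurl1a (1.19 ± 0.17, adjusted p = 0.0083), the corepressor Tle3 (0.54 ± 0.09, adjusted p = 0.0145) and Numbl (0.57 ± 0.11, adjusted p = 0.0189) rose. Each of these calls was lost without T1 (adjusted p = 0.0555, 0.0736, 0.109 and 0.164), and that of Tle3 also without T2 (0.09) and that of Numbl without T2 or T3 (0.0712 and 0.0741). In metastasis lines the 4 of smallest p were Dtx3l (1.60 ± 0.13, adjusted p = 0.000124), Tle2 (2.44 ± 0.26, adjusted p = 0.000396), Numbl (0.78 ± 0.10, adjusted p = 0.0013) and Dlk2 (1.41 ± 0.20, adjusted p = 0.0019). Dtx3l went from 11.8, 13.3 and 53.9 CPM in M1, M2 and M3 to 45.8, 32.4 and 159 CPM, and Tle2 from 10.00, 2.68 and 0.726 CPM to 38.2, 25.1 and 3.17 CPM. These 2 were the genes of the 51 whose change differed between sites, by 1.17 ± 0.18 (adjusted p = 0.0154) and 1.88 ± 0.34 (adjusted p = 0.0248). The Dtx3l call was lost without T1 or T2 (adjusted p = 0.0701 and 0.068) and the Tle2 call without T1, T2, T3 or M3 (adjusted p = 0.0615, 0.112, 0.0894 and 0.0543).

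Between sites, 2 of the 51 were higher and 4 lower in metastasis lines under DMSO, and 2 higher and 5 lower under PLX4720. These counts are near the shares of all genes called (4.64% and 7.49% under DMSO, 5.62% and 7.88% under PLX4720), so the genes below are single results and not a result of the list. Rbpj, which encodes the DNA-binding partner of Notch, was counted at 94.1, 75.7 and 106 CPM in T1, T2 and T3 under DMSO and at 162, 325 and 304 CPM in M1, M2 and M3. Its groups did not overlap, and it was higher in metastasis lines by 1.53 ± 0.30 (adjusted p = 0.0222), a call lost without T1, T2, M2 or M3 (adjusted p = 0.0712, 0.0802, 0.0783 and 0.0699). Under PLX4720 Rbpj was higher by 1.78 ± 0.39 (adjusted p = 0.0313), lost without the same lines (adjusted p = 0.0966, 0.0979, 0.0843 and 0.0765). Among the lower genes, the repressor Bhlhe40 differed by -2.49 ± 0.30 under DMSO and -2.19 ± 0.43 under PLX4720 (adjusted p = 0.00517 and 0.0219), and Hes6, which opposes Hes1, by -2.44 ± 0.44 and -3.04 ± 0.52 (adjusted p = 0.0173 and 0.0135). Neurl1a, which like Mib1 acts on ligands, differed by -4.13 ± 0.82 and -4.69 ± 0.82 (adjusted p = 0.0228 and 0.0142), and its relative Neurl1b by -3.81 ± 0.95 and -4.15 ± 0.76 (adjusted p = 0.0485 and 0.0172). Neurl1a was at 0.145 to 0.925 CPM in metastasis lines under DMSO and at 0.262 to 1.48 CPM under PLX4720. It passed the filter through the primary lines, which in part fixed its direction. Of the lower calls, that of Bhlhe40 under DMSO held whichever line was left out, and each of the others here was lost without M2 (adjusted p = 0.0507 to 0.158). Under DMSO, Hes6 was also lost without M1, Neurl1a without T2, T3 or M3, and Neurl1b without T1, T2, T3 or M3 (adjusted p = 0.0501 to 0.123). Under PLX4720, Bhlhe40 was also lost without T2, T3 or M3 and Hes6 without M3 (adjusted p = 0.0543 to 0.077). These site differences stood beside low or absent hepatocyte markers and a high sum of the fibroblast, stellate and mural markers in metastasis lines. Of the 10 biliary epithelial markers, 7 were tested and 5 were lower in metastasis lines under each treatment, with Krt19 at 830 to 1347 CPM in primary and at most 8.60 CPM in metastasis libraries. The summed biliary list was not lower under DMSO (4562 to 9103 against 2688 to 5264 CPM), with Spp1 on top in metastasis lines, and 4 to 6 of its genes were at 0 there. The part of cell type in these differences, those of the Jagged ligands and Hes1 included, was not tested.

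As a description only, the genes whose log2(CPM + 1) followed a member most closely over the 12 libraries were sought among 10620 genes averaging at least 5 CPM. The 12 libraries are 2 per line and share the gap between sites, and no test is given. Hes1 was most like Cyb5r4 (r = 0.974), Als2cl (0.971) and Tec (0.969). Hey1 was most like Rsl1 (0.940), Tfcp2l1 (0.930) and Prag1 (0.929). Nrarp was most like Gk (0.979), Trpa1 (0.975) and Krt20 (0.973), and Dtx4 most like Nsun3 (0.957), Ap2b1 (0.952) and Fam53b (0.950). For Notch3 (Atg16l2 at 0.874, Phip at 0.873 and Sned1 at 0.853) and Heyl (Npepl1 at 0.759, 2510039O18Rik at 0.744 and Gm14410 at 0.734) the values rest on 60 and 3 fragments.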

How the data were processed

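RNA-seq of 12 libraries (6 lines, DMSO or PLX4720) was read from count tables, 1 per library. The authors made the deposited counts with featureCounts 1.5.2 on paired fragments against exons of Ensembl 84 (GRCm38), per the file headers, without a strand setting, although the kit was stranded per the labels' protocols; no source used here names the aligner. From these counts, edgeR 4.0.16 (R 4.3.3) was used with its expression filter by group, TMM factors and the quasi-likelihood test. The PLX4720 fit held all 12 libraries blocked by line, with separate treatment terms for the sites (4 residual degrees of freedom). Each site fit held 6 libraries (4 residual degrees of freedom). Both libraries of a line deviated together (r = 0.839 to 0.923), which pairs them; lines of 1 number across sites did not (r = -0.0982 to 0.0120). No 2 libraries of a group agreed within sampling noise. SE is the fitted log2 value over the root of the F statistic. The fits were tested on simulated data with 200 changed genes. The simulation held no differences between lines and changed only well-counted genes. It therefore does not bear on members with few fragments or on the spread between lines. Members and lists were chosen with earlier results of these data known. All members were named, and of the other pathway genes the 4 of smallest p past the threshold per comparison. For PLX4720, Dlk1, Dll1, Rbpj, Snw1, Ctbp2 and Tle1 were also named, after their values were seen. Those calls were not followed under other settings. Alternatives were DESeq2 1.42.0, other size factors and filters, blocks, lines left out, and M2 and M3 summed. Motifs were sought in RefSeq promoter windows by exact match. Whether lines are separate animals is not stated, so p-values measure the spread between these lines.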

Additional observations from a re-analysis of the deposited data

Results flagged for a closer look

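The response to PLX4720 differed between metastasis and primary lines, by edgeR's test of the difference itself, for 4 of the genes named. The fitted difference of Nrarp was lower in metastasis lines (-2.59 log2, adjusted p = 0.0278), on 4 fragments in the 3 metastasis PLX4720 libraries. Nrarp passed the filter through the primary lines, and on the log2(CPM + 1) scale the changes of the lines overlapped, M1 and M2 (-0.16 and -0.26) falling by less than T1, T2 and T3 (-0.46, -0.35 and -0.50), so which site fell further depends on the scale. Dtx4 rose further in metastasis lines (0.78, adjusted p = 0.0459), with all 6 lines higher. Dtx3l (1.17, adjusted p = 0.0154) and Tle2 (1.88, adjusted p = 0.0248) also rose further there. Each of these calls was lost on leaving out T1, T2 or other single lines, as given with the values above.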

How the results depend on the processing

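Of the members' log2 changes under the other settings tried, 491 kept their direction and side of the threshold, 62 lost the call, 16 gained one and 4 changed sign. Without the replicate block by line, 0 members passed for PLX4720 over all lines, in either site or between sites, against 5, 3, 4 and 2 with it, while 4, 1, 3 and 2 had an unadjusted p under 0.05 in that edgeR fit. A replicate block by line number, which does not pair lines across sites, gave 5 site calls under DMSO and 4 under PLX4720, against 6 and 5. With primary libraries alone 5 members passed. Between sites in the PLX4720 change, DESeq2 gave 5, other size factors 1 and all genes with any count 5. Leaving out 1 line gave 1 to 3 in primary lines (1 without T1), 3 to 4 in metastasis lines, 4 to 6 over all lines, 0 to 2 between sites in the change (0 without T1, T2 or M2, with 5 to 6 at an unadjusted p under 0.05), and 3 to 5 and 4 to 5 between sites under DMSO and PLX4720. Signs changed for Jag2 over all lines (-0.21 to 0.16, reversed without M3), Jag2 in metastasis lines (-0.23 to 0.49, without M3), Jag2 between sites in the change (-0.044 to 0.66, without M1) and Notch2 there (-0.26 to 0.085, without M3), all uncalled. The cause was not tested, beyond fewer lines or genes in the fit. In metastasis libraries alone Nrarp did not pass the filter. With M2 and M3 summed, Hey1 and Nrarp under DMSO (adjusted p = 0.122 and 0.087) and Hes1 under PLX4720 (0.0658) lost their site calls. Depth limits Notch3 and Heyl everywhere and Nrarp, Hey1 and Jag2 in metastasis lines.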
